A study of Mus musculus with 8 samples.

Results

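Metalloproteinases of the MMP, ADAM and ADAMTS families and their tissue inhibitors, the TIMPs, were examined in the ribosome-bound RNA of mouse lung endothelium. The members were all gene symbols in the count tables that begin with Adam and a digit, with Adamts or with Mmp and a digit, together with Timp1 to Timp4. The rule gave 84 of 23238 symbols: 23 MMP, 33 ADAM, 19 ADAMTS, 5 ADAMTS-like and 4 TIMP genes. The symbols were chosen by name and not by level.

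MMPs are zinc-dependent enzymes that cleave collagens, laminins, elastin and many other extracellular proteins, and some are tethered to the cell surface. ADAMs are transmembrane proteins, and the catalytic ones release the outer parts of receptors, ligands and adhesion molecules from cells. ADAMTS enzymes are secreted, bind matrix and cleave proteoglycans, procollagens or von Willebrand factor, while ADAMTS-like proteins share their ancillary domains but have no protease domain. TIMPs block the active site of these enzymes. In vessels the families are known for remodelling of basement membrane and elastic fibres and for shedding of Notch receptors and junction proteins.

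Lungs came from C57BL/6J mice in 2 groups of 4 libraries. Control mice had the genotype Cdh5-CreERT2; RPL22tm1.1Psam and stayed in room air for 3 weeks from the age of 10 weeks. The other mice had the genotype Cdh5-CreERT2;Sox17fl/fl;RPL22tm1.1Psam and spent the same 3 weeks in hypoxia. Tamoxifen (2 mg daily, 5 days) was given to both groups when the mice were 8 weeks old, so recombination was induced in controls too. Cre is driven here by the promoter of Cdh5, the VE-cadherin gene of endothelial cells, and its activity adds a haemagglutinin tag to the ribosomal protein RPL22, by which ribosomes and their transcripts were pulled from whole lung. No group had the deletion without hypoxia or hypoxia without the deletion, so the effects of genotype and oxygen cannot be told apart.

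Library totals ran from 7000313 to 12913304 counts, and levels are given as CPM, counts scaled to a common library total. The libraries read the 3′ end of each transcript, and no division by length was made. Sox17, the deleted gene, had 2442 to 3072 counts per control library, and 6 to 473 counts per library, lower in 4 of 4, after deletion and hypoxia. The column names of Sox17-deleted hypoxic libraries 2, 3 and 4 share a stem, and no label says whether these came from separate animals. Across genes, log2 CPM of these 3 correlated pairwise at r = 0.41 to 0.46, and with library 1 at r = 0.42 to 0.45. Controls correlated more closely with each other, at r = 0.54 to 0.6, and with the Sox17-deleted hypoxic libraries at r = 0.431 to 0.517. Genes are no independent replicates in these correlations. In each library 8019 to 10429 symbols had a count, fewer in all 4 Sox17-deleted hypoxic libraries (8019 to 8708) than in the controls (9821 to 10429). The 10 endothelial markers all had counts in all 8 libraries and summed to 10800 to 12490 CPM in controls and 7726 to 12540 CPM in Sox17-deleted hypoxic libraries. Markers of other lung cells were present too: 8 alveolar type 2 markers summed to 882 to 1201 and 1923 to 3845 CPM, 6 club and ciliated markers to 1755 to 2663 and 3948 to 6053 CPM, and 10 fibroblast markers to 497 to 702 and 755 to 8939 CPM. Sums for 6 alveolar type 1 markers were 1117 to 1457 and 1100 to 1403 CPM, for 8 smooth muscle and pericyte markers 66.4 to 153 and 27.9 to 544 CPM, and for lymphocyte markers at most 14.3 CPM, with Ms4a1 at 0 throughout. Mesothelial markers had a count in 1 library, with Upk3b, Wt1 and Lrrn4 at 0 throughout. The part of these cells in the results below was not tested. In such bulk samples fewer cells of a type and less RNA per cell cannot be told apart.

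Many members had no count at this depth. A count in any library was found for 42 of the 84 members, or 50%, against 60.55% of all symbols. None of the 21 ADAM genes best known from testis and epididymis, such as Adam2 and Adam3 of sperm, had a single count in 85680283 counts. A count of 0 in a library allows a level of up to 0.232 to 0.429 CPM, and 0 in all 8 together allows 0.0350 CPM, where these limits cover counting error only. The 10 MMP genes that lie side by side on chromosome 9 (7272514 to 7699585, GRCm38) were also near 0: 7 had no count, Mmp12 had 1, and Mmp3 and Mmp8 reached 10 counts in a library each. In all, 9 members had counts in all 8 libraries, and 8 of these had at least 10 in each: Timp3, Timp2, Adam15, Mmp24, Mmp14, Adamts1, Adam10 and Adam17. The remaining one was Adam23, with 1 to 1540 counts. Adamts13, the von Willebrand factor protease best known from liver, had 3 to 18 counts in controls and 0 to 10 in Sox17-deleted hypoxic libraries.

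**Figure D1:**
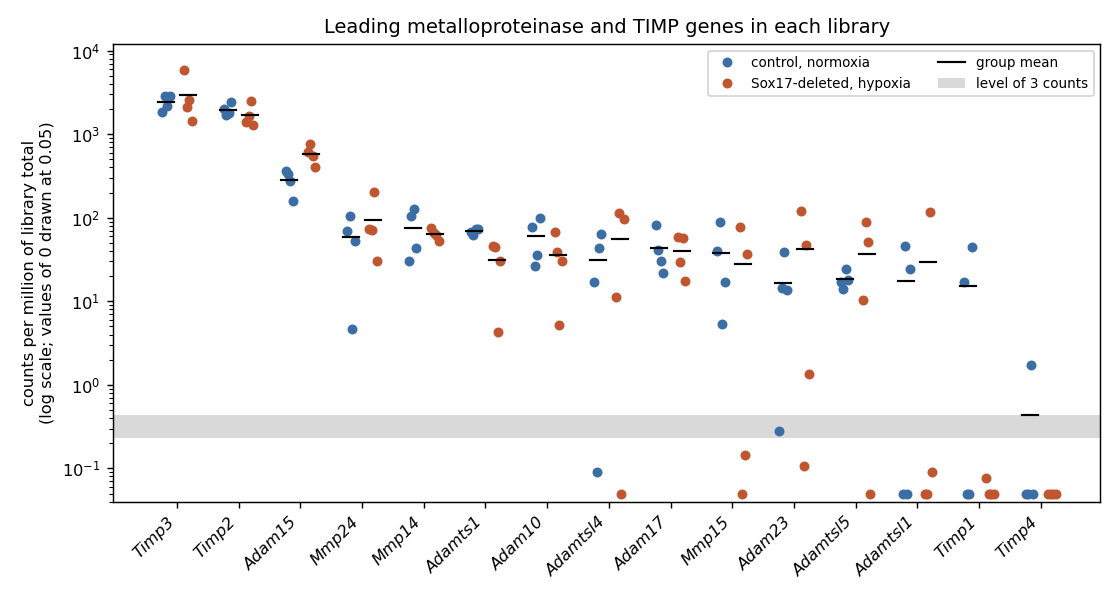
CPM (log axis) of the 13 members whose mean reached 20 CPM and of Timp1 and Timp4, 1 point per library, with control in blue, Sox17-deleted hypoxia in orange, short lines for group means, a grey band for the level of 3 counts in each library, and values of 0 drawn at 0.05. Of the members drawn, Adam15 and Adamts1 have groups that do not overlap.

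TIMP genes made up most of the family's RNA. Timp3 and Timp2 together took 81.75% to 87.3% of all member counts in control libraries and 73.9% to 84.2% in Sox17-deleted hypoxic ones. Timp3, whose product stays bound to matrix and inhibits ADAM17 and ADAMTS enzymes as well as MMPs, ranked 18th by mean CPM among the 14071 symbols with a count, and Timp2, which also takes part in activating pro-MMP2 at the cell surface, ranked 37th. Timp3 lies on chromosome 10 (86300372 to 86349506, plus strand) and Timp2 on chromosome 11 (118301069 to 118355740, minus strand).

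Timp3 had 1841, 2853, 2160 and 2883 CPM in control libraries and 5813, 2131, 2529 and 1432 CPM in Sox17-deleted hypoxic libraries. Sox17-deleted hypoxic library 1 stood above all others and library 4 below all others, so the groups overlapped. The log2 fold change, Sox17-deleted hypoxia minus control, was 0.32 (SE 0.41, 95% interval −0.55 to 1.19, edgeR adjusted p = 1.00), and −0.19 when library 1 of that group was left out. Timp3 overlaps the Syn3 gene on the opposite strand, whose own counts were 0 to 510, far below the 15976 or more of Timp3. Timp2 had 1979, 1685, 1788 and 2410 CPM in controls and 1406, 1651, 2498 and 1278 CPM in Sox17-deleted hypoxic libraries. Libraries 1, 2 and 4 of that group lay below all controls and library 3 above them. Its log2 fold change was −0.16 (SE 0.32, interval −0.85 to 0.53, edgeR adjusted p = 1.00), and −0.48 without library 3. In the fit of all libraries, neither gene's log2 fold change was larger in size than its SE.

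The ratio of Timp3 to Timp2 was 0.93, 1.69, 1.21 and 1.2 in controls and 4.13, 1.29, 1.01 and 1.12 in Sox17-deleted hypoxic libraries, again set apart by library 1 alone. The other TIMP genes were rare. Timp1, an inhibitor often induced in injury and inflammation, had 181, 0, 0 and 530 counts in controls and 1, 0, 0 and 0 in Sox17-deleted hypoxic libraries. The other, Timp4, had 20 counts in control library 3 and 0 in the other 7. Neither passed the expression filter, and in edgeR without a filter both had an adjusted p of 0.36.

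**Figure D2:**
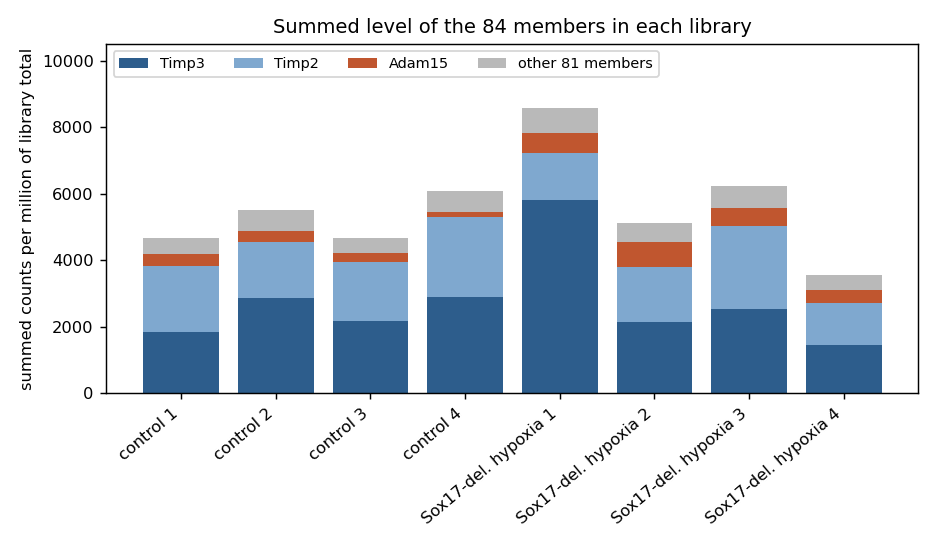
Summed CPM of all 84 members in each library, stacked as Timp3, Timp2, Adam15 and the other 81 members. Timp3 and Timp2 fill most of every bar, and the tallest bar, Sox17-deleted hypoxic library 1 at 8575 CPM, holds Timp3 at 5813 CPM.

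The proteinases and ADAMTS-like genes together summed to 835.5, 959, 711 and 727 CPM in controls and to 1356, 1337, 1208 and 844 CPM in Sox17-deleted hypoxic libraries. Libraries 1 to 3 of the second group lay above all controls and library 4 between them. TIMP genes exceeded this sum in every library, by 4.59 to 7.34 times in controls and 2.83 to 5.32 times in Sox17-deleted hypoxic libraries.

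Adam15 had the highest counts of the proteinase genes and the smallest p of the members tested. It encodes a transmembrane ADAM of endothelial and other cells with a catalytic and an integrin-binding disintegrin domain, and lies on chromosome 3 (89338542 to 89349996, minus strand). Its level was 359, 332, 273 and 158 CPM in control libraries and 607, 759.5, 541 and 401 CPM in Sox17-deleted hypoxic libraries. All 4 Sox17-deleted hypoxic libraries lay above all 4 controls, with means of 280.5 ± 89.1 and 577 ± 149 CPM (SD, n = 4). The edgeR log2 fold change was 1.05 (SE 0.36, 95% interval 0.27 to 1.83), or 2.07-fold, with an unadjusted p of 0.0122 and an adjusted p of 0.536 over 8282 genes tested, so it did not pass.

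With each library left out in turn the log2 fold change of Adam15 stayed between 0.86 and 1.23. Over all 16 alternatives, other tools included, its unadjusted p ran from 0.00325 to 0.0471 and its adjusted p from 0.0588 to 1.00. Alveolar type 2, club and ciliated, and fibroblast marker sums were also higher in all 4 Sox17-deleted hypoxic libraries than in any control. Of those markers, 7 of 8, 6 of 6 and 6 of 10 had a higher mean there. The sums of the other marker lists overlapped between the groups. The part of other cells in the Adam15 counts was not tested. An antisense transcript that overlaps Adam15, 4731419I09Rik, has no row of its own in the tables.

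Adamts1 differed in the opposite direction. It encodes a secreted protease that cleaves the proteoglycans versican and aggrecan and is known to restrain angiogenesis, and it lies on chromosome 16 (85793827 to 85803113, minus strand). Control libraries had 67.75, 62.6, 73.4 and 73.3 CPM, a narrow range, and Sox17-deleted hypoxic libraries had 45.9, 44.9, 4.29 and 30.3 CPM. All Sox17-deleted hypoxic values were below all control values, the lowest being the 30 counts of library 3. The log2 fold change was −1.16 (SE 1.06, interval −3.43 to 1.11), with an unadjusted edgeR p of 0.290 and an adjusted p of 1.00, and it was −0.81 without library 3.

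In all, 15 members passed the expression filter and were tested. EdgeR called none of them at an adjusted p of 0.05, as it called 0% of all 8282 genes. An unadjusted p under 0.05 was found for Adam15 alone, where 5.12% of all genes had one. Of the 15, Adam15 was the 1 member whose groups did not overlap and that was higher (1.63% of all genes tested), and Adamts1 the 1 that was lower (4.96%). The fold changes were positive for 7 and negative for 8 members with a median of −0.07, beside −0.01 for all genes tested. Limma-voom called no member either, and DESeq2 called 2 that did not pass the filter, Mmp9 and Adam33, described below.

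**Figure D3:**
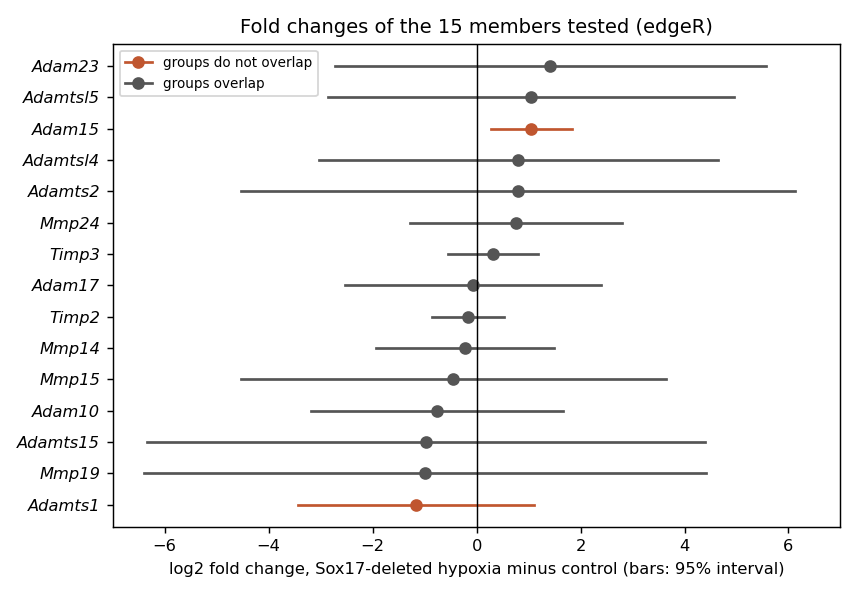
Log2 fold change (Sox17-deleted hypoxia minus control) of the 15 members tested with edgeR, with 95% intervals; orange marks the 2 members whose groups do not overlap. Of the 15 intervals, only that of Adam15 (0.27 to 1.83) does not cover 0, and those of sparsely counted members such as Mmp19 and Adamts15 span more than 10 units.

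The promoters of these 2 non-overlapping members are shown because their mean levels differed in opposite directions between groups that differ in a transcription factor gene and in oxygen. The 250 bases before the RefSeq start (GRCm38.p6, minus strand, 5′ to 3′ on the gene's strand) are Adam15 at chr3:89350029-89350278 and Adamts1 at chr16:85803114-85803363. Capitals mark every match, on both strands, to ACAAT, the core bound by SOX factors, and to ACAAAG, a core shared by SOX and TCF factors. They also mark every match to ACGTG, a form of the core of the hypoxia response element, and to TATAAA, the TATA box.
Adam15: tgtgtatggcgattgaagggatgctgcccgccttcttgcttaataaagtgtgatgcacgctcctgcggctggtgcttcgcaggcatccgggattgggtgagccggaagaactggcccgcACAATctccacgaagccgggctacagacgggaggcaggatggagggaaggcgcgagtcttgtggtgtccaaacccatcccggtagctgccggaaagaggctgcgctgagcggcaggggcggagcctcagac
Adamts1: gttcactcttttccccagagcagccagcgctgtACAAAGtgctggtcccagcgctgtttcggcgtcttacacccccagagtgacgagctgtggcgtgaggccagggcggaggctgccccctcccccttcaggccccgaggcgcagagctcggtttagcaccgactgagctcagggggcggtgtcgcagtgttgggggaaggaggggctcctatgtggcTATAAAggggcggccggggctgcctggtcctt

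Adam15 held 1 match to ACAAT, beginning at position −131 from the start, and Adamts1 held 1 match to ACAAAG at −217 and 1 to TATAAA at −32. Neither held ACGTG. Such matches are common: among 27025 promoter windows of the same length, 28.3% held ACAAT, 16.5% ACAAAG, 16.6% ACGTG and 13% TATAAA. Those are 1 window per gene, the first that the table lists. By the same choice, 15 of the 53 members with a promoter held ACAAT, 11 ACAAAG, 9 ACGTG and 13 TATAAA. Over all 58 windows of these members, 15, 12, 10 and 13 members held them. In the 2 promoters shown the matches do not overlap, and they describe the letters only.

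The other sheddases of the ADAM group stood much lower than Adam15. Adam10, which cleaves Notch receptors and VE-cadherin, had 78.0, 26.2, 35.9 and 99.5 CPM in controls and 68.3, 38.6, 5.14 and 30.5 CPM in Sox17-deleted hypoxic libraries. The groups overlapped, and the log2 fold change was −0.76 (SE 1.13, edgeR adjusted p = 1.00), with a range of −1.32 to −0.41 when single libraries were left out. Adam17, the tumour necrosis factor convertase, had 81.2, 41.3, 30.0 and 21.6 CPM in controls and 58.4, 29.1, 56.4 and 17.5 CPM in Sox17-deleted hypoxic libraries. It had a log2 fold change of −0.07 (SE 1.15, edgeR adjusted p = 1.00), 0.47 without control library 1. Adam23, a neural-type ADAM that binds other proteins and has no protease activity, ranged from 3 to 450 counts in controls and from 1 to 1540 counts in Sox17-deleted hypoxic libraries. Its highest count came from Sox17-deleted hypoxic library 1 and its lowest from library 2 of the same group.

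Among the MMPs the membrane-anchored ones were the most abundant. Mmp14 encodes MT1-MMP, which cleaves collagen at the cell surface and activates pro-MMP2. It had 30.5, 104, 127 and 43.3 CPM in controls and 74.4, 65.6, 61.6 and 52.7 CPM in Sox17-deleted hypoxic libraries. The second group lay wholly within the range of the first (log2 change −0.23, SE 0.80, interval −1.94 to 1.48, edgeR adjusted p = 1.00), and the value was 0.10 without control library 3. Mmp15, which encodes MT2-MMP, had 423, 992, 63 and 203 counts in controls and 987, 0, 1 and 407 in Sox17-deleted hypoxic libraries. Within the second group it was high in library 1 and at 0 and 1 count in libraries 2 and 3. Its log2 fold change was −0.45 (SE 1.90, edgeR adjusted p = 1.00), 0.42 without control library 2.

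Mmp24, which encodes MT5-MMP and is best known from the nervous system, had the highest mean CPM of the MMP genes, but its counts cannot be assigned to it alone. They were 735, 1168, 54 and 622 in controls and 937, 669, 1426 and 341 in Sox17-deleted hypoxic libraries. BC029722, a gene on the opposite strand whose exons overlap those of Mmp24 (chromosome 2), had the identical count in 7 of 8 libraries, and 123 in control library 3. Which strand these reads came from cannot be told. The fold change of Mmp24 (log2 0.76, SE 0.95, edgeR adjusted p = 1.00, −0.05 without Sox17-deleted hypoxic library 3) has the same limit.

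Mmp19, a secreted MMP, showed the same pattern. It had 88, 0, 161 and 765 counts in controls and 421, 0, 61 and 0 in Sox17-deleted hypoxic libraries. Tmem198b on the opposite strand had the identical count in 4 of the 5 libraries where Mmp19 was above 0, and 673 where Mmp19 had 765. For Adam17, the overlapping gene Iah1 had the same 395 counts in Sox17-deleted hypoxic library 3, and other counts in the remaining 7 libraries.

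**Figure D4:**
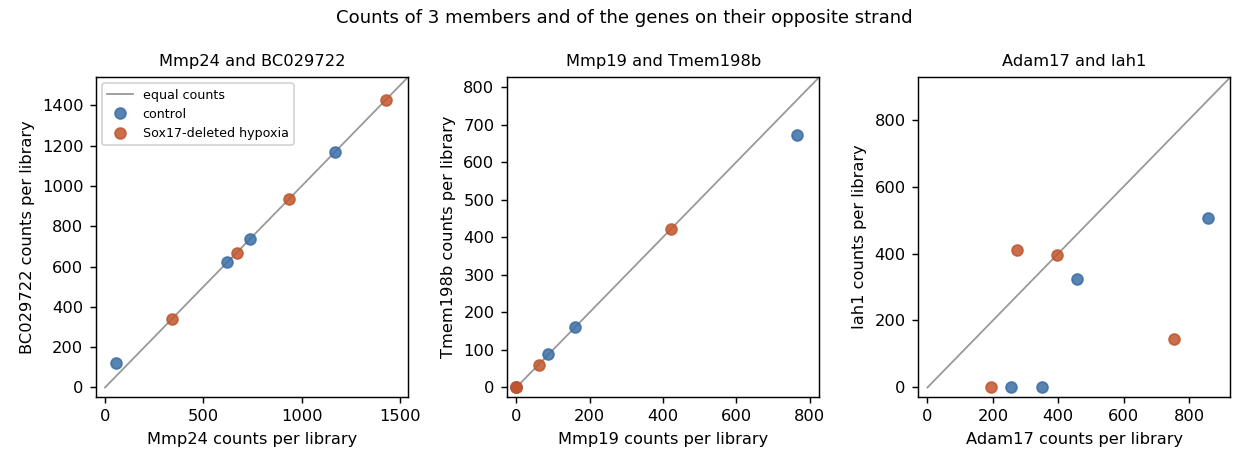
Counts per library of Mmp24, Mmp19 and Adam17 against those of the gene that overlaps each on the opposite strand, 1 point per library, with the line of equal counts in grey. Mmp24 lies on the line in 7 of 8 libraries and Mmp19 in 4 of the 5 where it has counts, while Adam17 lies on it in 1; points at 0 for both genes coincide.

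The gelatinases, which cleave denatured collagen and basement membrane collagen, were rare and split by library. In the Sox17-deleted hypoxic group, Mmp9 had 799 counts in library 2 and 634 in library 4, and it had 0 in the other 6 libraries. DESeq2, with 23 members tested, called Mmp9 (adjusted p = 7.62e-12) and Adam33 (adjusted p = 7.06e-10), beside 1.32% of 9352 genes called as higher by that tool. Adam33 encodes an ADAM known from airway mesenchyme and had, in the same group, 310 counts in library 2 and 218 in library 3, with 0 in the other 6. Both were at 0 in all controls and in 2 of 4 Sox17-deleted hypoxic libraries, and in edgeR without a filter each had an adjusted p of 0.36. Neutrophils and macrophages are known sources of MMP9. The 5 neutrophil markers with a row summed to 413, 29.1, 51.3 and 116 CPM in Sox17-deleted hypoxic libraries 1 to 4 and to 51.5 to 124 CPM in controls, and 0 of the 5 were at 0 throughout. Their highest sum was in library 1, where Mmp9 had no count, and came nearly all from S100a8 (3186 counts) and S100a9 (2137 counts). Retnlg had 5 counts in library 1 and 40 in library 3, and Csf3r and Cxcr2 had 0 in library 1. The 8 macrophage and monocyte markers summed to 158.5, 429, 192 and 104 CPM in the same 4 libraries and to 61.8 to 118 CPM in controls, with Adgre1 at 0 in all 8 libraries. Sums were highest in libraries 2 and 4, the pair with Mmp9 counts, for fibroblast markers (2300 and 8939 CPM), for smooth muscle and pericyte markers (365 and 544 CPM) and for alveolar type 2 markers (3845 and 2851 CPM). No other list had its highest sums in that pair. These sums do not stand for every marker. Of 8 smooth muscle and pericyte markers, 4 had a count in library 2 and 3 in library 4, against 4 to 5 in controls. The group mean was above that of controls for 3 of these 8, for 6 of 10 fibroblast and for 7 of 8 alveolar type 2 markers. The part of these cells in the Mmp9 counts was not tested. Mmp2, the gelatinase of mesenchymal cells, had 0, 36, 1 and 188 counts in controls and 0, 0, 0 and 40 in Sox17-deleted hypoxic libraries.

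ADAMTS-like genes, whose products bind fibrillin microfibrils or other matrix, included 3 of the 13 members with a mean of at least 20 CPM. Adamtsl4 had 181, 1, 502 and 751 counts in controls and 144, 1066, 0 and 1073 in Sox17-deleted hypoxic libraries. Adamtsl5 was even across controls, at 180, 157, 280 and 215 counts, and uneven in Sox17-deleted hypoxic libraries, at 133, 831, 356 and 0. Adamtsl1 had 0, 512, 0 and 286 counts in controls and 0, 0, 827 and 1 in Sox17-deleted hypoxic libraries and did not pass the filter. For each of the 3 genes the groups overlapped, and the edgeR adjusted p was 1.00 for Adamtsl4 (log2 fold change 0.80, SE 1.79) and Adamtsl5 (1.05, SE 1.82). Without Sox17-deleted hypoxic library 2 these were 0.21 and 0.37, and without control library 4 Adamtsl4 was 1.43.

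The remaining ADAMTS genes appeared in single libraries more than in groups. Adamts9, a proteoglycan-cleaving protease of vascular cells, had 180 counts in control library 1, 776 in library 1 of the other group and 0 elsewhere. Adamts5, an aggrecanase, had 220 counts in control library 4, 665 in library 4 of the other group and at most 2 elsewhere. Adamts2, a procollagen N-proteinase, had 86, 402, 8 and 0 counts in controls and 668, 2, 168 and 0 in Sox17-deleted hypoxic libraries. Adamts15 had 0, 466, 121 and 173 counts in controls and 0, 0, 161 and 100 in Sox17-deleted hypoxic libraries.

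This unevenness was general. Of the 22 members with a mean of 2 to 50 CPM, 20 (90.9%) had at least 100 counts in a library and 0 or 1 in another, against 89.1% of the 7280 symbols in the same range. Within controls alone the pattern held for 13 of the 22 members (59.1%) and 47.2% of all, and within Sox17-deleted hypoxic libraries for 16 members (72.7%) and 64.7% of all. Some members (10) reached 10 counts in only 1 library and 6 in only 2. Among them were Mmp11 with 487 counts (Sox17-deleted hypoxic library 1), Mmp3 with 224 (library 3 of that group) and Adam19 with 247 (control library 2).

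**Figure D5:**
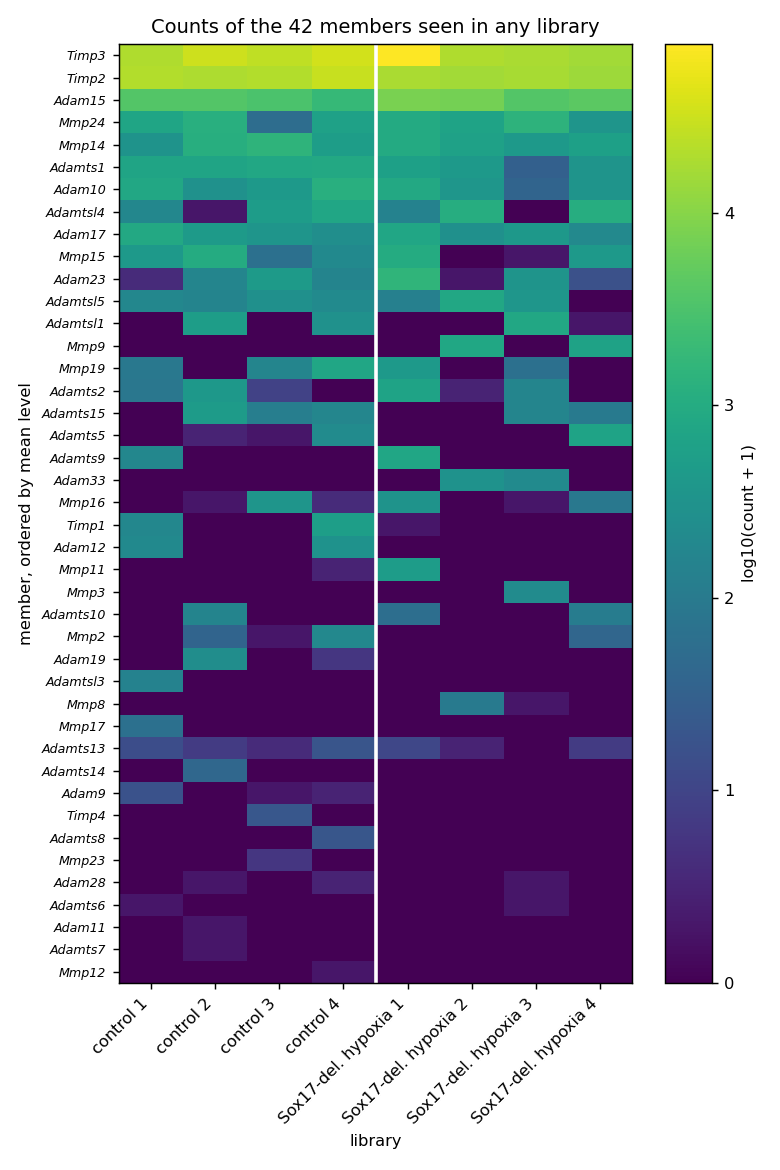
Counts of the 42 members seen in any library, as log10(count + 1), with members in rows ordered by mean level and the 8 libraries in columns, controls left of the white line. The 7 uppermost rows are above 0 in every library, and below Adam17 most rows mix high counts with 0 or 1 within a group.

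Genes that act with the family were read from 3 lists. Of 24 activators, partners and other inhibitors (among them Furin, which activates pro-forms, the TspanC8 tetraspanins that carry ADAM10, and the iRhom genes that carry ADAM17), 16 were tested. Of these 16, none was called by edgeR, none had an unadjusted p under 0.05, and none had groups that did not overlap. Among the genes not tested, Bmp1, a procollagen C-proteinase, had 17.0, 25.0, 0.0859 and 1.60 CPM in controls and at most 0.0774 CPM in the other group. Its groups did not overlap, but 0.0859 CPM in control library 3 and 0.0774 CPM in Sox17-deleted hypoxic library 1 are 1 count each. The order of those values came from the library totals alone. Furin stood at 108, 166, 95.2 and 102 CPM in controls and 19.75, 114, 46.3 and 11.7 CPM in Sox17-deleted hypoxic libraries, and Tspan14 at 165 ± 57.4 and 196 ± 125 CPM (SD, n = 4). Reck, a membrane-bound MMP inhibitor, had counts in control library 3 alone.

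Matrix substrates had 13 of 20 members tested, with none called. By edgeR, 2 of the 13 had an unadjusted p under 0.05, beside 5.12% of all genes tested. Nid1, which encodes the basement membrane linker nidogen, had 118, 147, 130.5 and 113 CPM in controls and 54.6, 38.85, 24.6 and 46.6 CPM after deletion and hypoxia, all lower (log2 fold change −1.62, SE 0.66, unadjusted p = 0.0282, edgeR adjusted p = 0.800). Elastin (Eln) was the other of the 13 whose groups did not overlap, at 182 ± 46.8 and 508 ± 99.5 CPM (SD, n = 4), higher by a log2 fold change of 1.49 (SE 0.36, unadjusted p = 0.00107, edgeR adjusted p = 0.346). Thus 1 of 13 was higher and 1 lower without overlap, beside 1.63% and 4.96% of all genes tested. The basement membrane collagen genes Col4a1 (405 ± 45.9 and 378 ± 91.0 CPM) and Col4a2 (449 ± 71.9 and 379 ± 115 CPM) overlapped. Versican and aggrecan, the substrates for which ADAMTS1 is best known, had at most 0.168 CPM and 0 counts.

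Genes of shed cell-surface proteins had 20 of 28 members tested, with none called. By edgeR, 4 had an unadjusted p under 0.05 (Ager, Efnb2, Eng and Icam1), beside 5.12% of all genes tested. Of these 4, Icam1 had groups that overlapped (log2 fold change −1.43, SE 0.63). The fold changes of the 20 were positive for 5 and negative for 15, with a median of −0.28. Over all genes tested 4110 were positive and 4172 negative, with a median of −0.01. Groups did not overlap for 1 higher and 3 lower genes of the 20, beside 1.63% and 4.96% of all genes tested. Notch4, an endothelial Notch receptor, had 267, 388, 417 and 367 CPM in controls and 245, 176, 258 and 216 CPM after deletion and hypoxia (log2 fold change −0.65, SE 0.35, edgeR adjusted p = 1.00). Efnb2 (adjusted p = 0.465) and Eng (adjusted p = 0.684) were lower and Ager, an alveolar type 1 gene, higher (adjusted p = 0.657), all by edgeR. Cdh5, which encodes VE-cadherin, overlapped at 755 ± 119 and 523 ± 80.5 CPM.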

How the data were processed

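The authors deposited 8 tables of raw counts, 1 whole number for each gene symbol; per the submitters' processing notes the authors used Bowtie2, bedtools and mm10, with no versions or settings listed, and per the labels' protocols libraries were made with a QuantSeq 3′ kit. The treatment of strand and of reads that match several genes is stated in none of the sources. Duplicate rows (44) were summed to 23238 symbols. Tests used edgeR 4.0.16 in R 4.3.3 on all genes: TMM factors, filterByExpr (8282 genes), group alone, the quasi-likelihood test and Benjamini-Hochberg adjustment at 0.05. SE is the log2 fold change divided by the square root of F, and 95% intervals use edgeR's degrees of freedom. Alternatives were RLE factors, no filter, a mean of at least 20 CPM, DESeq2 1.42.0, limma 3.58.1 (voom), robust estimation, a replicate block, leaving out each library, other CPM denominators and, chosen after seeing the data, Sox17-deleted hypoxic libraries 2 to 4 summed to 1 sample. The scripts were tested on simulated counts with the same dispersion (spread between libraries) for every gene. At a dispersion of 0.1, edgeR recovered 32.9%, 100% and 100% of planted 2-, 4- and 16-fold changes. At 1.99, the common dispersion of these data, edgeR and limma-voom recovered 0% of each. DESeq2 then recovered 2.78%, 5.56% and 19.6%, with 44 false calls. A gene spread that widely could thus change 16-fold and not be called by edgeR. Named were Sox17, the TIMP genes, members with a mean of at least 20 CPM or past the filter without overlap, and, of 3 lists, genes averaging 50 CPM or more without overlap; the other genes named were chosen after their values were seen. Members and lists were chosen with earlier results of these data known. Positions come from GENCODE M21 (84 of 84 members) and promoters from RefSeq (53 of 84). Every pair of libraries differed by more than sampling noise (chi-square per degree of freedom 188 or more). No label says that libraries came from separate animals, so the spread behind the p-values may be technical in part.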

Additional observations from a re-analysis of the deposited data

Results flagged for a closer look

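In all, 60 groups of 4 library values were examined, and in 3 a library was flagged as lying far from the others. Groups with very low counts, and sums with at most 1 detected gene, could not be flagged. The chance rate of about 1 in 20 holds for normally spread values. Counts with many values of 0 are not spread so, and the number flagged cannot be set against that rate. Adamtsl1 had 118 CPM in Sox17-deleted hypoxic library 3 and at most 0.0896 CPM in the other 3 of that group. Timp4 had 1.72 CPM in control library 3 and 0 in the other 3 controls. The ADAMTS genes outside the proteoglycan, procollagen and von Willebrand factor groups summed to 14.3 CPM in control library 2, nearly all from the 157 counts of Adamts10, and to at most 0.0946 CPM in the other controls. The cause was not tested.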

How the results depend on the processing

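In the 16 alternatives no member was called except Mmp9 and Adam33, the 2 that DESeq2 called. Genes called over all numbered 0 with edgeR, 17 without a filter, 473 with DESeq2, 44 with limma-voom, 1 with robust estimation, 1 with Sox17-deleted hypoxic libraries 2 to 4 as 1 sample, and 0 to 5 with a library left out (5 without Sox17-deleted hypoxic library 1). Members with an unadjusted p under 0.05 numbered 1, but 12 without a filter and 5 with DESeq2. Sox17 had a log2 fold change of −4.39 and an edgeR adjusted p of 0.346, and passed without a filter (−4.38), with DESeq2 (−4.35) and without Sox17-deleted hypoxic library 1 (leave-one-out range −6.51 to −4.0). Of 12 named members with a fitted fold change, 4 kept their sign throughout: Timp2, Adam15, Adamts1 and Adam10. With a library left out, the range of log2 fold changes crossed 0 for Timp3 (−0.19 to 0.56), Mmp24 (−0.05 to 1.23), Mmp14 (−0.47 to 0.10), Adam17 (−0.34 to 0.47) and Mmp15 (−1.69 to 0.42). The range kept its sign but was wide for Adam23 (0.21 to 2.21), Adamtsl4 (0.21 to 1.43), Adamtsl5 (0.37 to 1.47), Adam10 (−1.32 to −0.41) and Timp2 (−0.48 to −0.02). Adam17 was 0.03 with RLE factors and with DESeq2, and 0.05 with libraries 2 to 4 as 1 sample, where Mmp15 was 0.27. Limma-voom gave −0.31 for Adam23, −1.56 for Adamtsl5 and −3.12 for Mmp15, beside −0.45 in the edgeR fit. The replicate block gave −0.03 for Adamtsl4, −1.31 for Adam23, −0.15 for Adamtsl5 and −2.36 for Mmp15 and changed no call; same-numbered libraries did not deviate together (r −0.02 to 0.02 over 4 pairs) and not every library correlated best with its own number, so the numbers do not pair them. Members whose groups did not overlap numbered 2 in each setting but 1: without Sox17-deleted hypoxic library 3, Timp2 was the third. In 60 of 60 comparisons, a group's mean level under another denominator moved by no more than 1 SD. In the Sox17-deleted hypoxic group Timp4 was at 0 throughout and could not move. For sparse members the SD was too large for a small rescaling to exceed, as for Adamtsl1 in that group (mean 29.56, SD 59.05 CPM). The causes were not tested.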
